A study of Mus musculus with 3186 samples.

Results

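Notch signalling passes between touching cells. A ligand of the Delta-like or Jagged family on a sending cell binds a Notch receptor on a receiving cell, the receptor is cut, and its inner part joins the DNA-binding protein RBPJ to switch on target genes, among them the Hes and Hey family of transcriptional repressors. In blood vessels the pathway is known for arterial identity of the endothelium and for the maturation and upkeep of mural cells, the pericytes and smooth muscle cells that wrap the endothelial tube. The genes described here are 10 rows of the count table, chosen by name and all found, out of 19937: the receptors Notch1, Notch3 and Notch4, the ligands Dll4, Jag1 and Jag2, and the targets Hes1, Hey1, Hey2 and Heyl.

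RNA was sequenced by Smart-seq2, a full-length method without molecular tags, from 3186 single brain cells of adult C57BL/6 mice aged 12 to 15 weeks. All cells were sorted for a fluorescent reporter: 1445 from Cldn5(BAC)eGFP mice, whose transgene marks endothelium, 1484 that carried both reporters of Pdgfrb(BAC)eGFP/NG2dsRed mice, which together mark mural cells, and 257 from Pdgfra-H2BGFP mice, whose reporter marks a perivascular population and the oligodendrocyte lineage. The cells lay on 4, 4 and 2 plates. No label ties a cell to an animal. Every line therefore counts as 1 sample without replicates, and no difference here has a test. Plates give the only spread, and a plate may or may not hold another animal.

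Cells were grouped without any Notch pathway gene and named from marker genes. This gave 274 arterial, 643 capillary and 294 venous endothelial cells, 1118 pericytes, 168 arterial smooth muscle cells, 78 mural cells with an intermediate level of the smooth muscle actin gene Acta2, and 87 fibroblasts. The intermediate cells held 5983 CPM of Acta2 (counts scaled to 1e+06 reads in genes), against 24772 and 36707 CPM in both smooth muscle sub-clusters, 0.0745 CPM of the arterial smooth muscle gene Cnn1, and still 392 CPM of the pericyte gene Abcc9. Such cells are usually placed on the venous side, but no label gives a vessel, so they are called Acta2-intermediate mural cells. Another 312 endothelial and 43 mural cells took no name and stay out of the comparisons. Reads per cell ranged from 99905 to 1606954 (median 350339). Endothelial markers summed to 10554 CPM or more in the endothelial zones, and pericyte markers to at most 39.1 CPM there. In mural classes endothelial markers summed to 2050 CPM in pericytes, 1593 CPM in Acta2-intermediate cells and 745 CPM in arterial smooth muscle. These mural sums rest on part of the set. Of the 8 endothelial markers 4 reached 20 CPM in pericytes, 3 in Acta2-intermediate cells and 1 in arterial smooth muscle. Endothelial zones, fibroblasts and mural classes share no plate with 10 cells of each, so class, reporter line and plate cannot be told apart between them.

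In the mm10 annotation (GENCODE M21) all 10 are protein-coding genes. Notch1 (chr2:26457903-26516663), Notch3 (chr17:32120820-32166852), Jag1 (chr2:137081456-137116644), Jag2 (chr12:112907819-112929776), Hey1 (chr3:8663359-8667256) and Hey2 (chr10:30832359-30842801) lie on the minus strand. Notch4 (chr17:34564268-34588503), Dll4 (chr2:119325784-119335962), Hes1 (chr16:30064384-30067796) and Heyl (chr4:123233556-123249875) lie on the plus strand.

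Hey2, Notch3 and Dll4 are shown by sequence because they stand for the mural target, the mural receptor and the endothelial ligand of the results below. RefSeq (build GRCm38.p6) gave a window of 250 bases before to 50 after the start site for 7 of the 10 genes. The windows were searched on both strands for GTGGGAA, the letters RBPJ is known to bind, and for its core TGGGAA. The printed stretches are the parts before the start site that lie outside annotated exons, 5′ to 3′ on the gene's strand, with the core in capitals.
Hey2, chr10:30842802-30843033, minus strand: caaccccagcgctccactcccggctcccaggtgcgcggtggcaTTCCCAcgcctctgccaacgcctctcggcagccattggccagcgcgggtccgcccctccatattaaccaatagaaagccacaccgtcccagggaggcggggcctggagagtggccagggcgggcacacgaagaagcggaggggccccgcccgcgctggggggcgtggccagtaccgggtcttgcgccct
Notch3, chr17:32166891-32167140, minus strand: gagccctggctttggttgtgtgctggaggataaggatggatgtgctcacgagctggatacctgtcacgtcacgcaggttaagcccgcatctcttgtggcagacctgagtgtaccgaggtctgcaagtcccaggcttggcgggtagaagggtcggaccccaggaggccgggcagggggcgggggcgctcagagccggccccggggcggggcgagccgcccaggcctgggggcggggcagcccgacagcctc
Dll4, chr2:119325565-119325783, plus strand: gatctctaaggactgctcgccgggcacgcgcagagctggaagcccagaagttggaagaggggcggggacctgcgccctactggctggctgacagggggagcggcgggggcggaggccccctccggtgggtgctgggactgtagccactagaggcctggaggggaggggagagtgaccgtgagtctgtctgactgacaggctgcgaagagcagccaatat

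The Hey2 window held the 7 letters GTGGGAA on 2 places, here given by the first base of the core on the printed strand. One lay on the opposite strand 207 bases before the start site, shown above. The other lay on the gene's own strand with its core 3 bases before the start site, outside the printed stretch. The same letters occur in 6.38% of 32851 promoter windows and the core in 25.6%. The windows of Notch1, Notch3, Notch4, Dll4, Jag1 and Jag2 held neither, which says only that these letters are not in these windows. Hes1, Hey1 and Heyl had no window, so no target gene other than Hey2 was searched.

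The 3 ligand genes outweighed the 3 receptor genes in endothelium, and the receptor genes outweighed the ligand genes in mural cells. Per kilobase of exon, a scale that allows genes to be summed, the 3 ligand genes together stood at 152 CPM in arterial, 108 CPM in capillary and 34.7 CPM in venous endothelium, and the 3 receptor genes at 52.0, 41.2 and 25.8 CPM. The mural sums were 182 CPM per kilobase of receptor genes against 38.5 CPM of ligand genes in pericytes, 308 against 57.5 CPM in Acta2-intermediate cells, and 116 against 64.5 CPM in arterial smooth muscle. Fibroblasts held 28.3 CPM per kilobase of ligand genes, all of it Jag1, and 8.81 CPM of the 3 receptor genes. On their 2 plates Jag1 stood at 157 and 222 CPM. The receptor genes differed more between these plates: 37.2 and 248 CPM of Notch1, 16.2 and 83.2 CPM of Notch3, 12.95 and 29.4 CPM of Notch4. The size of the ligand excess in fibroblasts therefore depends on the plate, which the pooled sums do not show. These sums leave out Notch2, a receptor outside the 10 genes and named here after its values were seen: it stood at 185 CPM in fibroblasts (plates 135 and 615), above the 3 other receptor genes in that class, at 145 CPM in arterial smooth muscle, 115.5 CPM in Acta2-intermediate cells and 88.2 CPM in pericytes, and at 17.8 to 28.8 CPM in the endothelial zones. The 4 target genes summed to 510 CPM per kilobase in arterial smooth muscle, 271 CPM in pericytes, 241 CPM in Acta2-intermediate cells, 211 CPM in arterial, 105 CPM in capillary and 51.2 CPM in venous endothelium, and 87.6 CPM in fibroblasts. Oligodendrocytes sorted on the fibroblast plates, which serve as the background of those plates alone, held 0.911, 0.690 and 0.438 CPM per kilobase of ligand, receptor and target genes.

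**Figure D1:**
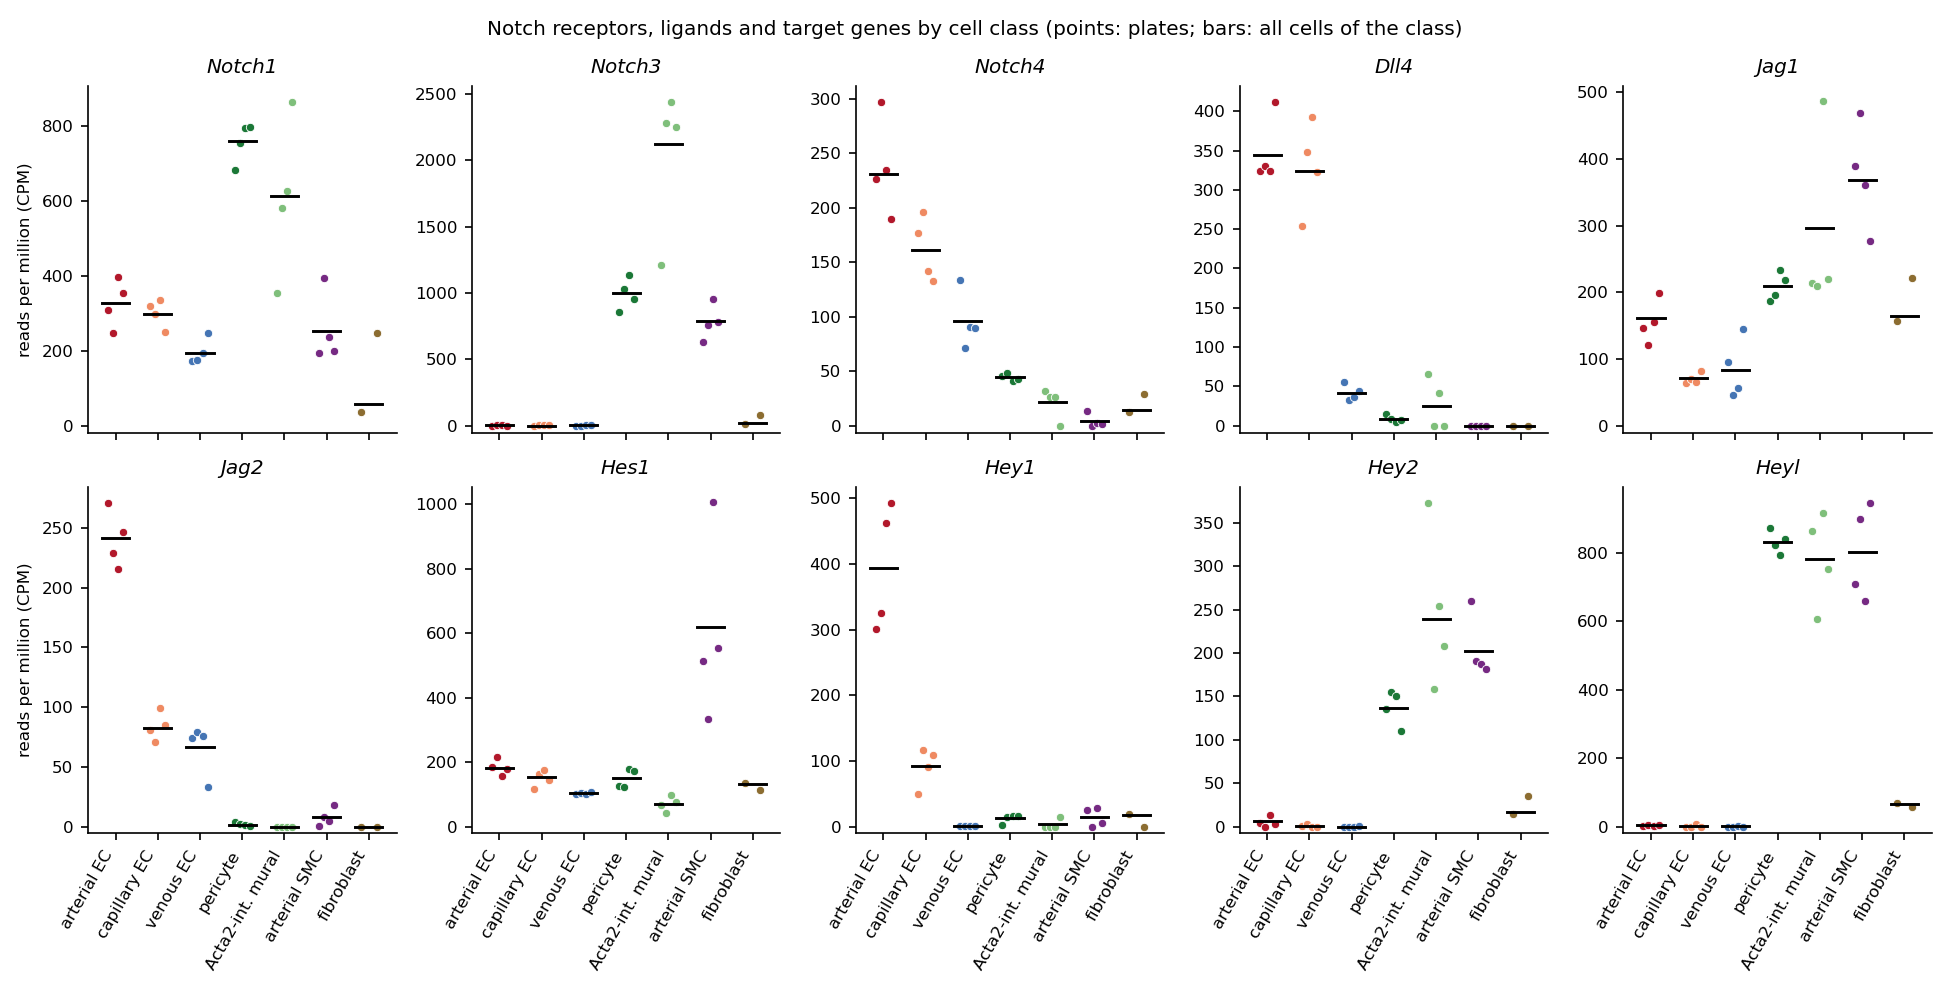
Level of each of the 10 genes in CPM (linear axis from 0, scaled per panel) in 7 cell classes; each point is 1 plate with at least 10 cells of the class and each bar is the class with all its cells pooled. Notch4, Dll4, Jag2 and Hey1 have their highest bars in endothelium, Notch1, Notch3, Jag1, Hes1, Hey2 and Heyl in mural classes.

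Notch1, a receptor best known from arterial and sprouting endothelium, was read most in pericytes. On the 4 mural plates its level in pericytes was 681, 753, 795 and 796 CPM, against 247, 309.5, 353 and 396 CPM in arterial endothelium on the endothelial plates. No endothelial plate reached a pericyte plate. Capillary endothelium held 298 CPM (plates 249 to 335), arterial smooth muscle 253.5 CPM (195 to 395), venous endothelium 194 CPM (174 to 248) and Acta2-intermediate cells 613 CPM (355 to 865). In the order of levels pericytes and Acta2-intermediate cells came first and did not differ beyond their plates, and each later neighbour also overlapped with the next. Fibroblasts were lowest at 58.9 CPM, from 37.2 CPM on plate Pdgfra1 and 248 CPM on plate Pdgfra2.

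Notch3, the receptor of mural cells whose human counterpart is mutated in an inherited small vessel disease, was highest in Acta2-intermediate cells. It stood there at 1209, 2250, 2285 and 2439 CPM, in pericytes at 856, 957, 1028 and 1139 CPM, and in arterial smooth muscle at 634, 761, 779.7 and 957 CPM. The lowest Acta2-intermediate plate, Mural3, lay above the highest pericyte plate, and the ranges of pericytes and smooth muscle overlapped. Every Acta2-intermediate cell had a Notch3 read after all cells were thinned to 90000 reads (78 of 78, exact binomial 95% interval 95.4 to 100%). Fibroblasts held 23.1 CPM and the endothelial zones 1.66 to 3.28 CPM, with reads in 2.72% to 4.38% of cells.

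Notch4, an endothelial receptor, declined from arterial to venous endothelium. Its plates stood at 189.6, 227, 235 and 297 CPM in arterial, 133, 142, 177 and 197 CPM in capillary, and 71.3, 89.6, 90.4 and 134 CPM in venous endothelium, with overlap between neighbours but none between the ends. Pericytes lay below all endothelial plates at 44.3 CPM (40.8 to 48.4) yet were not empty: 19.6% of them had a read (17.3 to 22.0%) against 0.667% of oligodendrocytes, whose median depth of 509438 reads exceeded the 331875 of pericytes (25.0% and 2.67% without thinning). The oligodendrocytes came from other plates and another line, so they cannot show carry-over of endothelial RNA on the mural plates. Such carry-over was not tested. With possible mixed wells left out, pericytes kept 42.3 CPM. Pericytes were not the only such class. Fibroblasts held 14.6 CPM, with a read in 24.1% of cells after thinning (15.6 to 34.5%). Acta2-intermediate cells held 21.8 CPM, with a read in 10.3% (4.53 to 19.2%). Arterial smooth muscle had 3.92 CPM, with a read in 4 of 168 cells after thinning.

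Per kilobase of exon the 3 receptor genes can be ranked within a class. In pericytes Notch3 stood at 123, Notch1 at 53.4 and Notch4 at 5.49 CPM per kilobase, and in arterial smooth muscle at 97.9, 17.8 and 0.487. Arterial endothelium held 28.6 CPM per kilobase of Notch4, 23.0 of Notch1 and 0.406 of Notch3. By CPM Notch1 (327) stood above Notch4 (231) there. The order of Notch4 over Notch1 therefore rests on the exon lengths, which join all annotated exons of a gene.

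Dll4, the Delta-like ligand of arterial and tip cells, was an endothelial gene with a step before the veins. Arterial plates held 324, 324, 329.9 and 411.5 CPM and capillary plates 254, 323, 348 and 393 CPM, so the 2 zones overlapped, whereas venous plates held 33.0, 36.3, 44.4 and 55.9 CPM, clear of both. Per kilobase it was the leading ligand of arterial and capillary endothelium (89.3 and 84.1 CPM per kilobase, against 34.7 and 11.9 for Jag2 and 27.8 and 12.2 for Jag1). The thinned share of cells with a Dll4 read was 66.1% in arterial, 57.7% in capillary and 18.4% in venous endothelium (22.4% before thinning in the latter). Outside endothelium reads were rare: 2.15% of pericytes (1.38 to 3.18%), 2 of 78 Acta2-intermediate cells, and none of 168 arterial smooth muscle cells or 87 fibroblasts, which allows shares of up to 1.79% and 3.45%. The 25.0 CPM of Acta2-intermediate cells came from these 2 cells, 1 of which gave 50.0% of the reads.

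Jag1, a ligand known for the signal from endothelium to developing smooth muscle, was the one ligand gene of the 3 with reads in all 7 classes. Arterial smooth muscle plates held 277, 361, 389 and 469 CPM, Acta2-intermediate plates 209.6, 214, 220.5 and 487 CPM, and pericyte plates 187.5, 196, 218 and 234 CPM. Thus smooth muscle lay above pericytes on every plate, and Acta2-intermediate cells lay with the pericytes except on plate Mural5. Of arterial smooth muscle cells 93.5% had a read (88.6 to 96.7%), of pericytes 57.3% (54.4 to 60.3%). Fibroblasts held 157 and 222 CPM on their 2 plates, arterial endothelium 162 CPM (121.5 to 199), venous 82.9 CPM (46.7 to 144) and capillary endothelium 70.9 CPM (64.8 to 82.4). Arterial and capillary plates did not overlap, while the venous range covered the capillary one.

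Jag2, the other Jagged ligand, marked arterial endothelium and was almost absent from mural cells. Its arterial plates held 215, 229, 246.5 and 271 CPM, the capillary plates 70.7 to 99.5 CPM and the venous plates 33.3 to 79.0 CPM. No capillary or venous plate reached an arterial one. Read shares were 82.1% of arterial, 46.2% of capillary and 42.2% of venous cells, against 0.984% of pericytes and 0 of 78 Acta2-intermediate cells and 0 of 87 fibroblasts, which allows up to 3.85% and 3.45%. Arterial smooth muscle held 8.18 CPM in 11 of 168 cells, most of them among the sub-cluster with more Cnn1 (9 of 83 cells, against 2 of 85).

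Hes1, a repressor that answers to Notch and to other signals, was read in all 7 classes and peaked in arterial smooth muscle. There its plates held 333, 514, 555 and 1006 CPM, above every plate of any other class. Arterial endothelium followed with 181 CPM (156 to 216), capillary endothelium with 154 CPM (116 to 174), pericytes with 152 CPM (123 to 178) and fibroblasts with 133.5 CPM (112 to 136), and these neighbours overlapped. Venous endothelium held 104 CPM (99.6 to 108). Acta2-intermediate cells, the class with the most Notch3, were lowest at 40.6, 66.1, 76.1 and 98.8 CPM. The share of cells differed less than the level: 76.2% of arterial smooth muscle cells had a read (69.0 to 82.4%) and 51.3% of Acta2-intermediate cells (39.7 to 62.8%).

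Hey1, a target tied to arterial endothelium, had the largest ratio between arterial and venous cells of the 10 genes. Arterial plates held 302, 326, 463 and 493 CPM, capillary plates 50.1, 90.2, 109 and 116.5 CPM, and venous plates 0.0727, 0.160, 0.371 and 1.05 CPM, with no overlap. Of arterial cells 67.2% had a read (61.2 to 72.7%), of capillary cells 21.9% (18.8 to 25.3%) and of venous cells 2.04% (0.753 to 4.39%). Mural classes and fibroblasts held 3.28 to 17.5 CPM. In Acta2-intermediate cells all Hey1 reads came from 1 cell.

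Hey2 and Heyl were mural genes. Hey2 plates stood at 158, 208, 254 and 373 CPM in Acta2-intermediate cells, 181, 188, 190.4 and 259.7 CPM in arterial smooth muscle and 110.2, 135, 151 and 155 CPM in pericytes; both Acta2-rich classes lay above the pericytes. Although Hey2 is known as an arterial gene of the embryo, adult arterial endothelium held 6.13 CPM, from 7 of 274 cells, and 1 venous cell held 1 read. Heyl was flat across the mural wall: 793 to 873 CPM in pericytes, 606 to 916 CPM in Acta2-intermediate cells and 658 to 946 CPM in arterial smooth muscle. Fibroblasts held 66.7 CPM of Heyl and 16.7 CPM of Hey2. The endothelial zones held 0.117 to 3.03 CPM of Heyl, and 1 cell gave 92.7% of the capillary reads.

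For each comparison below a gene counts when either class holds at least 5 CPM and is called apart when the log2 ratio of CPM plus 1 passes 2-fold. Between endothelial cells of the 3 zones and pericytes all 10 genes counted and 9 were apart. Notch4 (log2 1.85), Hey1 (3.40), Dll4 (4.75) and Jag2 (5.45) were higher in endothelium, while 16.0% of all genes counted were; Jag1 (-1.13), Notch1 (-1.44), Hey2 (-5.58), Heyl (-8.19) and Notch3 (-8.34) were lower, against 18.8% of all genes. The plates of these 9 did not overlap. Jag1 was within 2-fold under median-of-ratios scaling and at a higher sub-cluster resolution, which left 8 genes apart. Hes1 was level (log2 -0.03), with 148 CPM in endothelium and 152 CPM in pericytes. The median of the 10 was -0.58 and that of all genes counted -0.11. On the mural plates themselves only 14 endothelial cells of the 3 zones were found, and all 9 genes kept their direction there, with Notch4 (log2 0.61) and Jag1 (-0.98) within 2-fold. Notch1, for instance, stood at 229.5 CPM in these cells and 760.0 CPM in the pericytes, while Hes1 was higher in them (340.5 CPM, log2 1.16). The 14 cells came through the mural sort and differed from the pooled zones. They held 22.5 CPM of Notch3, 14.1 CPM of Heyl and 48.3 CPM of Dll4, against 2.08, 1.85 and 260 CPM in the zones. Whether they carried mural RNA was not tested.

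**Figure D2:**
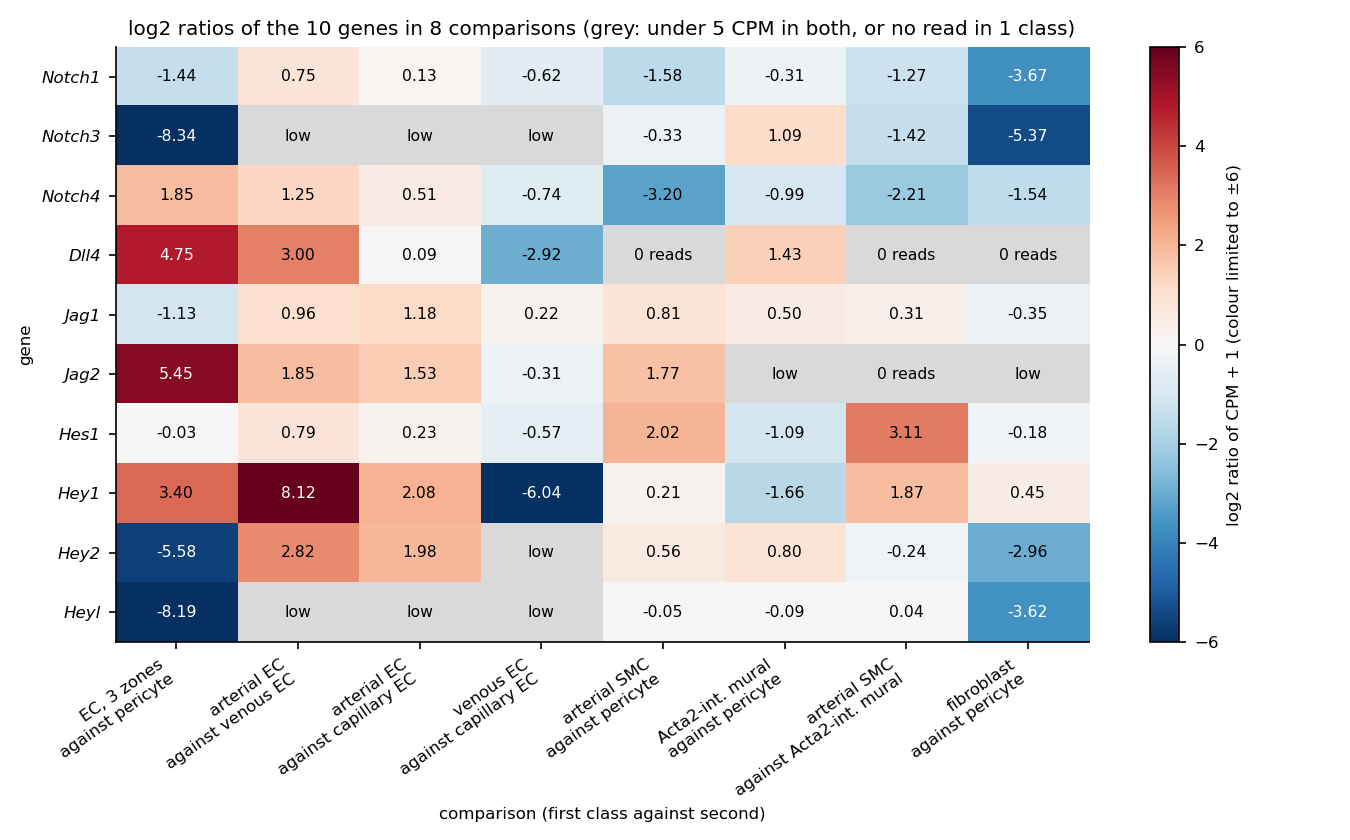
log2 ratios of CPM plus 1 for the 10 genes (rows) in 8 comparisons of classes (columns); red is higher and blue lower in the first class, and grey marks genes under 5 CPM in both classes or without a read in 1. Endothelial cells and pericytes differ in 9 of the 10 genes, whereas Heyl and Hey2 stay within 2-fold between the mural classes.

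Along the endothelium the genes pointed one way. Between arterial and venous cells 8 of the 10 counted, 5 were at least 2-fold higher on the arterial side (background 7.74%) and none on the venous side (background 6.29%). Within each of the 4 shared plates the log2 ratio was between 7.20 and 8.76 for Hey1, 2.51 and 3.28 for Dll4, 1.49 and 2.85 for Jag2, and 0.76 and 2.04 for Notch4. The remaining call, Hey2 (2.82), rests on the 7 arterial cells named above and is lost without plate EC5. Jag1 (0.96), Hes1 (0.79) and Notch1 (0.75) were higher in arterial cells on all 4 plates but within 2-fold in the pools. Their highest within-plate log2 ratios were 1.45, 1.03 and 1.02. The median of the 8 genes was 1.55, against 0.02 for all genes.

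Arterial against capillary cells gave 4 of 8 genes higher (background 6.56%) and none lower (4.51%): Hey1 (log2 2.08), Hey2 (1.98, again lost without plate EC5), Jag2 (1.53) and Jag1 (1.18). Dll4 was level (0.09, within-plate -0.28 to 0.35), as was Notch1 (0.13). Venous against capillary cells gave 2 of 7 genes lower (background 3.56%) and none higher (3.99%): Hey1 (-6.04) and Dll4 (-2.92, within-plate -3.40 to -2.16). Thus Jag1 and Jag2 passed 2-fold between arterial and capillary cells, Dll4 between capillary and venous cells, and Hey1 at both borders.

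**Figure D3:**
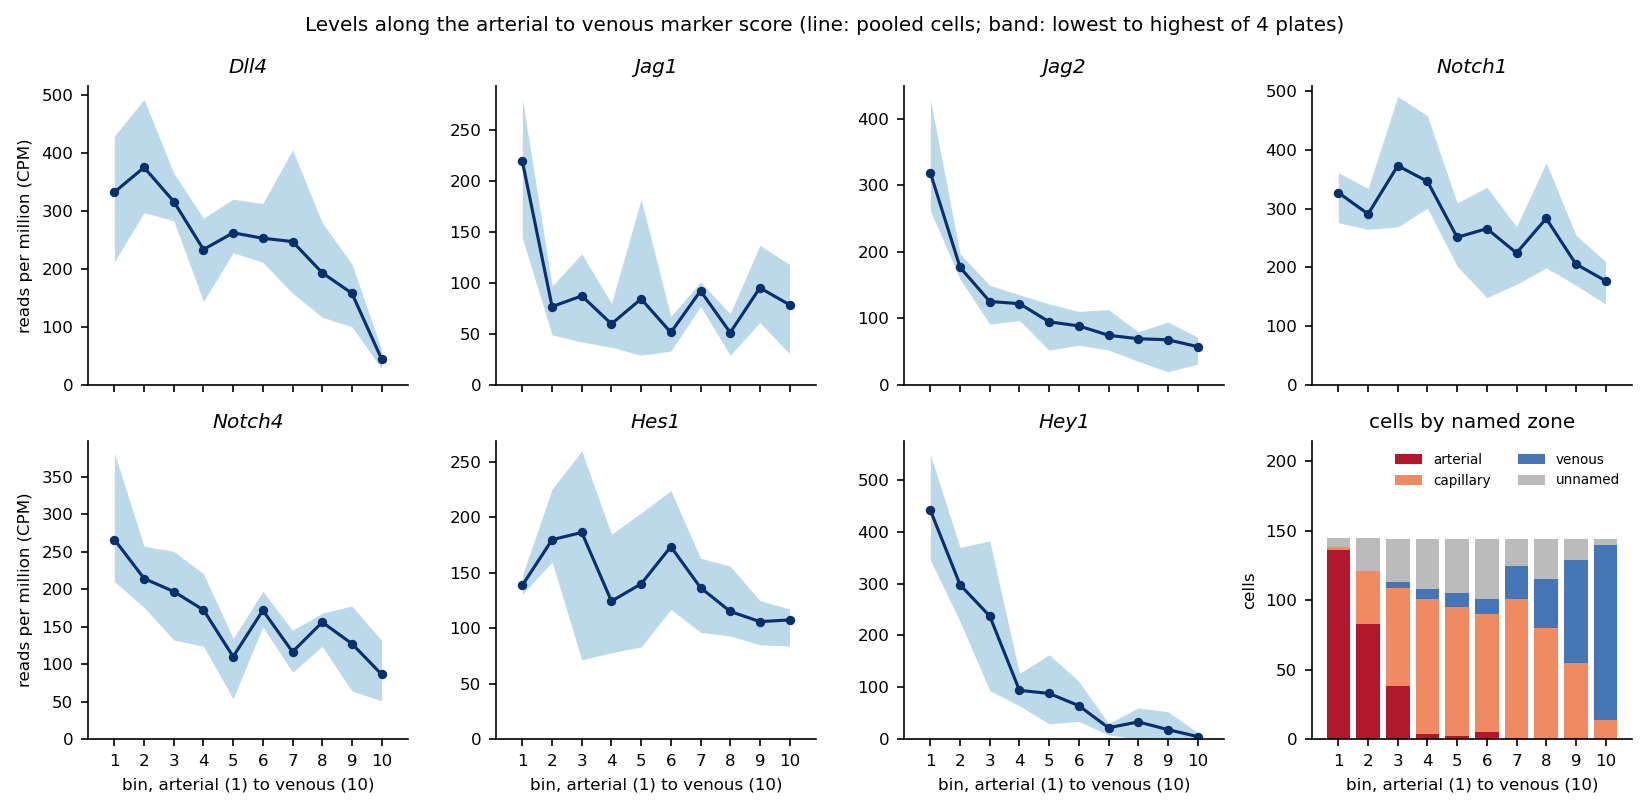
CPM of 7 genes in endothelial cells of the Cldn5(BAC)eGFP line ranked by arterial minus venous marker level and split into 10 bins (x axis, 1 arterial to 10 venous); lines pool the cells, bands span the 4 plates, and the last panel counts the named zones per bin. The line of Jag1 peaks in bin 1, those of Jag2 and Hey1 decline toward bin 10, and that of Dll4 is lowest in bin 10.

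A finer view came from ranking the endothelial cells of the Cldn5(BAC)eGFP line by their arterial minus venous marker level, into bins of 144 or 145 cells, each a range of a score and not a cell type. Jag1 stood at 219 CPM in the most arterial bin (plates 144 to 280) and at 51.0 to 94.9 CPM in the other 9, with no order among these. Jag2 declined at each of the 9 steps, from 319 to 57.1 CPM. Hey1 declined at 8 of 9 steps, from 441 CPM to 94.0 CPM in bin 4 and 4.84 CPM in bin 10. Dll4 stood at 332 CPM in bin 1, 247 CPM in bin 7, 158 CPM in bin 9 and 44.1 CPM in bin 10, where the highest plate (60.6 CPM) lay below the lowest of bin 9 (99.7 CPM). Notch4 went from 266 to 86.4 CPM, declining at 7 of 9 steps, and Notch1 from 327 to 177 CPM with plates that overlapped between neighbouring bins. Hes1 showed the smallest change between the ends, 139 against 107 CPM, among the genes with 100 CPM in bin 1.

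Mural classes share all 4 plates. Against pericytes, arterial smooth muscle gave 2 of 10 genes higher (background 12.7%) and 3 lower (18.3%). Hes1 was higher by log2 2.02 (within-plate 1.43 to 2.49) and Notch1 lower at log2 -1.58, with -0.93 on the plate of the smallest difference; Notch4 (-3.20) was lower on each plate as well. The other 2 calls, Jag2 higher (1.77) and Dll4 without a read in smooth muscle, rest on few cells. Jag2 was lower on plate Mural3 (0.145 against 3.57 CPM) and its call is lost without plate Mural6. Jag1 (0.81, within-plate 0.34 to 1.25) and Hey2 (0.56, 0.29 to 0.93) were higher in smooth muscle on each plate but within 2-fold in the pools. Notch3 was lower on each plate but within 2-fold (-0.33, -0.43 to -0.25), and Heyl (-0.05) was lower on some plates and higher on others.

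Acta2-intermediate cells against pericytes gave 2 of 9 genes higher (background 11.3%) and 2 lower (15.6%). Notch3 was higher by log2 1.09 (within-plate 0.50 to 1.23), and Hes1 lower at -1.09 (-1.57 to -0.85). Both are close to the 2-fold limit: at a lower sub-cluster resolution, where the class holds 97 cells, they stood at 0.90 and -0.49, and Hes1 was at -0.95 as a mean of cells and -0.94 without plate Mural4. The calls of Dll4 (1.43) and Hey1 (-1.66) rest on 2 cells and 1 cell, and without plate Mural5 Dll4 stood at 0.79. In arterial smooth muscle against Acta2-intermediate cells 3 of 10 genes were higher (background 17.0%) and 4 lower (18.5%). Hes1 was the largest of those with reads in both classes (log2 3.11, within-plate 2.85 to 3.33), Notch3 was lower on each plate (-1.42, -1.59 to -0.93), and so was Notch1 (-1.27, -2.11 to -0.55), which was within 2-fold without plate Mural6 and at the lower resolution. Notch4 (-2.21), Hey1 (1.87), Jag2 and Dll4 were called on reads from at most 11 cells of a class. Members' medians were 0.08, -0.09 and -0.10 in these 3 comparisons and those of all genes -0.15, -0.03 and -0.08.

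Fibroblasts against pericytes gave 6 of 9 genes lower (background 13.2%) and none higher (23.0%): Notch3 (log2 -5.37), Notch1 (-3.67), Heyl (-3.62), Hey2 (-2.96), Notch4 (-1.54), and Dll4 with no read. Jag1 (-0.35), Hes1 (-0.18) and Hey1 (0.45) were within 2-fold with overlapping plates. Hey1 stood at 19.5 CPM in fibroblasts of plate Pdgfra1 and had no read in those of plate Pdgfra2. The median of the 9 was -2.96 and that of all genes 0.01. Without plate Pdgfra1 Notch4 was within 2-fold (-0.60), Notch1 stood at -1.64, and Hey1 was called lower. Of the fibroblasts 18.4% carried markers of another class, and without these 16 wells fibroblasts kept 21.4 CPM of Notch3 and 53.4 CPM of Heyl. Pericyte markers summed to 2941 CPM in all fibroblasts, of which the single gene Vtn gave 2397 CPM.

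Within pericytes 1 of the 3 sub-clusters stood apart in Notch3, while Notch1 overlapped between them. The 291 cells led by Spp1, the gene of osteopontin, held 690.1 CPM of Notch3 (plates 613 to 786), against 1129 CPM (952 to 1300) and 1077 CPM (911 to 1200) in the other two, and 108 CPM of Hey2 (101 to 117) against 146.5 CPM (134 to 161) and 148.5 CPM (84.7 to 217). Notch1 stood at 769.9, 719.5 and 818 CPM and Heyl at 842, 843 and 802.5 CPM in the same order. Within arterial smooth muscle the 83 cells with more Cnn1 held 628.5 CPM of Notch3 (501 to 742), below the 964 CPM (751 to 1353) of the 85 cells with less, without overlap, while Jag1 (288 against 455 CPM) and Hes1 (684 against 550.1 CPM) overlapped.

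The same cells often carried both sides of the pathway. After thinning, 91.6% of arterial endothelial cells (87.7 to 94.6%) and 91.1% of arterial smooth muscle cells (85.7 to 94.9%) had a read of at least 1 of the 3 ligand genes and of at least 1 of the 3 receptor genes. The share was 75.4% in capillary and 57.1% in venous endothelium, 73.1% in Acta2-intermediate cells, 58.0% in pericytes and 43.7% in fibroblasts, against 0 of 150 oligodendrocytes (upper bound 2.43%). The separate shares of ligand and of receptor reads were 98.2% and 93.4% in arterial endothelium, 93.5% and 97.0% in arterial smooth muscle, and 58.2% and 99.1% in pericytes. Whether both kinds met in a cell more often than these separate shares give was not tested. Cells with reads of these receptor genes alone were most common among pericytes (41.1%, 38.2 to 44.1%) and were 1.82% of arterial endothelial cells. Cells with ligand reads alone were 21.8% of fibroblasts (13.7 to 32.0%), 15.0% of venous and 6.57% of arterial endothelial cells, and 0.268% of pericytes. With Notch2 counted as a receptor, an alternative chosen after the data were seen, ligand reads alone were left in 3.45% of fibroblasts (0.717 to 9.75%), 12.2% of venous and 5.47% of arterial endothelial cells, and fibroblasts with both kinds came to 62.1% (51.0 to 72.3%).

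**Figure D4:**
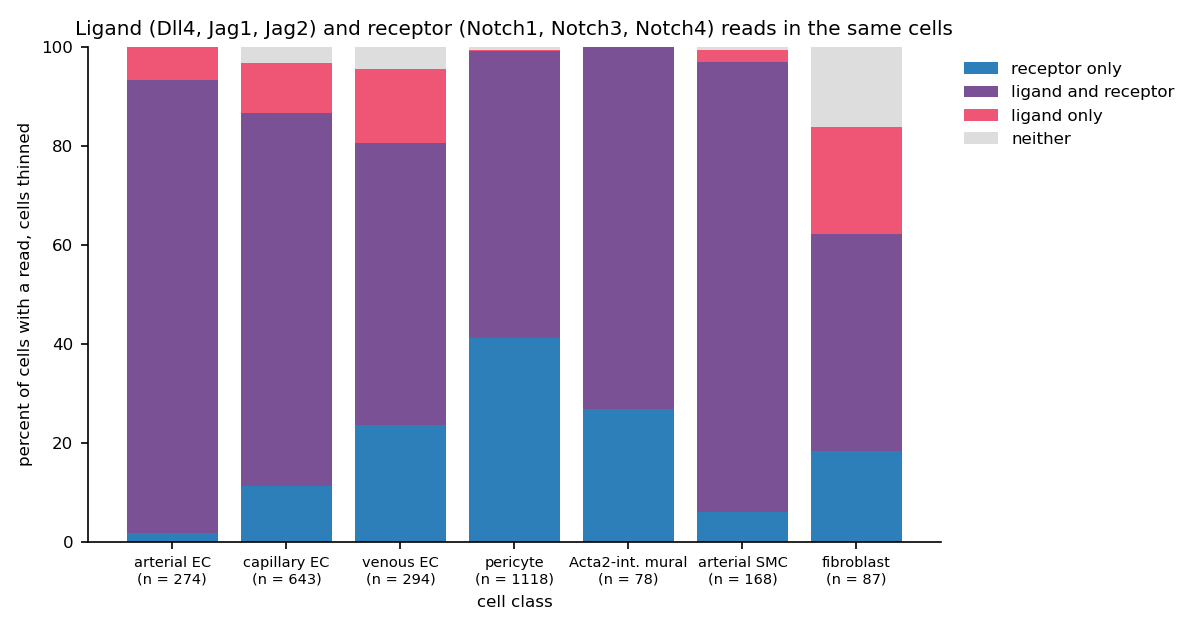
Percent of cells of each class (x axis, with the number of cells) with a read, after thinning to 90000 reads, of receptor genes (Notch1, Notch3, Notch4) alone, of ligand and receptor genes, of ligand genes alone, or of neither. Receptor reads alone are 41.1% of pericytes and 1.82% of arterial endothelial cells.

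Of 12 pairs of genes followed cell by cell, 1 had intervals that did not overlap. These intervals take each cell as independent, which cells of the same plate or animal need not be, so they are no test. Among capillary endothelial cells, 26.7% of the 371 with a Dll4 read had a Hey1 read (22.3 to 31.5%), against 15.4% of the 272 without one (11.4 to 20.3%). The cells with Dll4 also lay nearer the arterial end, with a median marker score of 0.042 against -0.074. They had more reads before thinning as well (median 359620 against 342445). The part of position and of depth was not tested. In arterial endothelium the same shares were 69.6% and 62.4%, with overlapping intervals. Heyl was read in 81.0% of pericytes with and 75.9% of those without a Notch3 read, again overlapping.

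Of 57 further Notch pathway genes listed by name, 56 were in the files. They cover glycosyltransferases that tune ligand choice, proteases that cut the receptor, ubiquitin ligases, and cofactors of RBPJ. Between endothelium and pericytes 46 counted. Of these 7 were at least 2-fold higher in endothelium (16.0% of all genes) and 11 lower (18.8% of all genes), with a median log2 of -0.31. Furthest apart on the endothelial side was Egfl7, a secreted Notch modulator of endothelium (1860 against 11.0 CPM), then Mfng, a Fringe glycosyltransferase (178.5 against 1.27 CPM). On the pericyte side were the Deltex ubiquitin ligase genes Dtx4 (0.526 against 126 CPM) and Dtx3 (30.4 against 952 CPM). Between endothelial zones few of these genes were apart, and few of all genes. None of 42 was apart between arterial and venous cells (all genes 7.74% higher and 6.29% lower). None of 41 was apart between venous and capillary cells (all genes 3.99% and 3.56%). In arterial against capillary cells 1 of 42 was higher (all genes 6.56%) and none lower (4.51%), Numbl at 5.53 against 1.52 CPM.

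Between mural classes and for fibroblasts the counts were near or below the shares of all genes given above. Arterial smooth muscle had 4 of 43 higher and 8 lower than pericytes, with Nrip2, a nuclear receptor interacting protein, at 939 against 34.8 CPM, the ubiquitin ligase gene Neurl1b at 73.2 against 21.4 CPM, Dtx4 at 2.39 against 126 CPM and Aph1b, a subunit of gamma-secretase, at 24.5 against 92.1 CPM. The other two higher genes, named after their values were seen, were the ligand gene Dll1 (9.77 against 1.18 CPM) and the protease gene Adam17 (112.5 against 54.3 CPM). Acta2-intermediate cells had 3 of 42 higher and 7 lower than pericytes: Nrip2 at 869 CPM, the acetyltransferase gene Kat2a at 82.3 against 32.9 CPM and, named after its value was seen, the Notch target Nrarp at 347.5 against 151 CPM; the corepressor gene Tle1 (23.4 against 78.3 CPM) and the ubiquitin ligase gene Itch (29.5 against 83.7 CPM) were lowest among those with 20 CPM. Smooth muscle against Acta2-intermediate cells gave 2 of 42 higher and 6 lower, among them Dtx2 (28.3 against 7.19 CPM), Dll1 (9.77 CPM against no read, named after its value was seen), Dtx4 (2.39 against 49.8 CPM) and Dtx3 (291 against 860 CPM). Fibroblasts had 13 of 49 higher and 7 lower than pericytes, led by Dner, which encodes a Notch-binding membrane protein (58.5 against 0.570 CPM), and the Fringe gene Lfng (22.0 against 0.179 CPM) on one side and Nrarp (2.28 against 151 CPM) and Nrip2 (2.05 against 34.8 CPM) on the other.

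Likeness of pattern was measured over 28 pools of 1 class on 1 plate, the 2 oligodendrocyte pools included, which share plates and depth, as Pearson's r of log2(CPM + 1) and as a description. Among the genes themselves Notch3 and Heyl (0.97), Hey2 and Heyl (0.96) and Notch3 and Hey2 (0.95) were most alike by r, with Spearman's rho of 0.81, 0.84 and 0.81. Hes1 and Jag1 (0.86) came next, then Dll4 and Notch4 (0.82, rho 0.89) and Notch1 and Jag1 (0.82). Hes1 and Jag1 and Notch1 and Jag1 were less alike by rank (rho 0.40 and 0.47). By rank Jag1 and Hey2 were most alike (rho 0.90, r = 0.66). Outside the list Vcl, the gene of the adhesion protein vinculin, was among the 2 nearest to Notch3 (r = 0.981), Heyl (0.978) and Hey2 (0.970), with 996 CPM in Acta2-intermediate cells and 86.9 CPM in venous endothelium, and Plce1 was nearest to Notch3 (0.984). Nearest to Jag2 was 8430408G22Rik (0.950; arterial 396, capillary 148, venous 92.2, pericyte 1.69 CPM), to Dll4 the gene Git2 (0.904), to Notch1 the gene Dock6 (0.942; pericyte 1373 CPM), to Notch4 the gene Lgals9 (0.924), to Jag1 the laminin gene Lamb2 (0.952) and to Hes1 the heat shock gene Hspb1 (0.941; arterial smooth muscle 406 CPM). Hey1 had no close partner among the genes searched (A430090L17Rik, 0.793), which did not include the arterial markers.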

How the data were processed

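The deposited counts are reads per gene and cell for 19937 genes; per the submitters' processing notes reads were aligned with STAR 2.4.2a to mm10, the counter and filters being not given in the sources used. The authors' scaled table, whole numbers that sum to nearly the same total in each cell, is a score and served as an alternative alone. Smart-seq2 does not mark strand, so reads of Notch1, Notch3, Notch4 and Dll4 cannot be told from those of genes overlapping them on the other strand.

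Clusters were made on a seeded 50% of genes without pathway or reporter genes: 2000 variable genes, 30 principal components, 15 neighbours, Leiden at resolution 1 (leidenalg 0.10.2), again within endothelial, mural and Acta2-rich cells. A name needed over 50% of a marker set at 50% or more of its highest level, 3 markers with 20 CPM, and for endothelial zones 1 own marker among the 10 leading genes, those with 50 CPM and reads in 25% of cells. Acta2-intermediate cells held Acta2, Tagln and Myh11 between the pericyte and smooth muscle levels, with Abcc9, Kcnj8 and Vtn at 20 CPM or more. The share of cells, the own-marker condition and the clustering of Acta2-rich cells were set after the data were seen; without the 25% the capillary clusters would take no name. The members and lists were chosen with earlier results of these data known.

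Counts were pooled per class and scaled to CPM; exon lengths are from GENCODE M21. Every class is 1 sample, so no test was run. Plates gave a range where they held 10 cells. Intervals are exact, at 95%, and, like limits from 3 counts, cover counting error only: PCR reads are not independent molecules, and pooled values weight deep cells more. No pair of cells had identical counts. Ratios and calls were checked on simulated data. Doublets were not called; 217 wells (6.81%; 14.0% of pericytes) with 10% of another class's marker level were left out in an alternative. Named were all members, the 2 pathway genes furthest apart in each direction with 20 CPM, and the 2 genes most like a member among those searched. Python 3.11.15, numpy 2.4.6 and scipy 1.17.1 were used.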

Additional observations from a re-analysis of the deposited data

Results flagged for a closer look

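In 41 sets of 4 plates of 1 class with at least 20 CPM, 5 had a plate far from the other three; chance alone sets about 1 in 20 apart, and plates are not separate samples. Dll4 in arterial endothelium stood at 411.5 CPM on plate EC6 and at 324 to 329.9 CPM on the others. Jag2 in venous endothelium was at 33.3 CPM on plate EC6 against 74.0 to 79.0 CPM. In Acta2-intermediate cells Notch3 was at 1209 CPM on plate Mural3 against 2250 to 2439 CPM, and Jag1 at 487 CPM on plate Mural5 against 209.6 to 220.5 CPM. Hey2 in arterial smooth muscle was at 259.7 CPM on plate Mural3 against 181 to 190.4 CPM.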

How the results depend on the processing

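The 8 comparisons held 42 calls of single genes, and 625 of their 626 values under the alternatives kept the direction. The exception was Hey1 in Acta2-intermediate cells against pericytes, at log2 0.13 at the higher sub-cluster resolution. The number of genes apart in that comparison, 4, became 0 at the lower resolution (Notch3, Dll4, Hes1 and Hey1 lost) and 2 at the higher (Hes1 and Hey1 lost). Between arterial and venous endothelium it went from 5 to 8 at the higher resolution, where Notch3, Jag1 and Heyl were added and 69 cells were called arterial. Leaving out 1 plate gave 4 to 6 in the latter, 4 to 5 in the former, 5 to 7 for smooth muscle against Acta2-intermediate cells (7 with all plates), 4 to 5 for smooth muscle against pericytes (5), 3 to 4 for arterial against capillary cells (4), and no change for endothelium against pericytes (9), fibroblasts against pericytes (6, though without plate Pdgfra1 Notch4 left and Hey1 entered) and venous against capillary cells (2). With another random draw of genes for clustering no capillary, venous or Acta2-intermediate class was named, so 6 of the comparisons could not be made. The 2 alternatives chosen after seeing the data, the unnamed endothelial cells added or smooth muscle limited to the cells with more Cnn1, kept every count within 1.5 times. By Spearman's rho the gene most like a member was the same for 2 of 10 (Dll4 and Jag2). Causes were not tested. Ratios within plates are given in the report for the 6 comparisons whose classes share plates. No paired analysis was possible because no test was run to which a replicate block could be added. Depth limits the low values: thinning moved the count of class and gene sets with reads in 50% of cells from 35 to 32.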

Other observations

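The 30 mural cells led by Moxd1 and Coch, which took no class name, held 1207 CPM of Notch3, 856 CPM of Heyl, 343 CPM of Jag1, 321 CPM of Notch1, 168 CPM of Hes1 and 137 CPM of Hey2, and no read of Dll4 or Jag2. The 63 endothelial cells led by Pdgfrb and Vtn, also unnamed, held the endothelial genes Hey1 (199.5 CPM) and Dll4 (120.4 CPM) beside the mural genes Heyl (125 CPM) and Notch3 (62.5 CPM). The 164 unnamed endothelial cells led by Aktip, with a median of 1606 genes per cell, held 71.9 CPM of Dll4 and 56.5 CPM of Hes1, and 147 CPM of Jag2.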
